A study of Rattus norvegicus with 65 samples.

Results

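The tumors described here are the second-generation transplants of carcinogen-induced rat mammary tumors, each set against the primary tumor that founded its line. Arrays were taken by their titles, Transplant # 2 against PrimaryTumor, and paired by the number of the transplant series. There were 11 second transplants and 11 primary tumors, which makes 22 of the 65 arrays. The series carried the numbers 10, 13, 17, 19, 25L, 25R, 32, 33, 34, 36 and 42.

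In the study, tumors raised by a carcinogen in rats were passed from host to host for 5 generations, and frozen tissue of each generation was profiled as total RNA on an Affymetrix array. The hosts were syngeneic, that is, genetically matched to the tumor, so that the graft is not rejected as foreign. The primary group holds untransplanted tumors and the transplant 2 group holds tumors that had been passed through 2 successive hosts. The labels state no transgene and no drug for either group. They name neither the carcinogen nor the strain, age or sex of the rats, and give invasive or metastatic behaviour for no single tumor. It is also not stated whether 25L and 25R came from 1 animal. Each line is 1 tumor lineage. Unless 1 value per series is named, SEs and p-values below come from the residual spread of all 65 arrays, in which successive passages of a line count as separate values.

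A chemically induced mammary carcinoma is a mixture of luminal and myoepithelial tumor cells with fibroblasts, vessels and immune cells. The first growth of such a tumor starts from cells of the host's own gland, while a transplant starts from a piece or suspension of an established tumor and recruits its stroma and vessels anew. Mammary epithelium is controlled by ovarian hormones and prolactin and by secreted Wnt and BMP signals, whose range is set by secreted binding proteins such as the SFRP family and sclerostin-domain proteins. Whole-tissue RNA reads all of these cells together, and fewer cells of a type cannot be told apart from less RNA per cell.

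Values below are log2 of the array intensity after each array was scaled to a common median. Low values were set to a floor of 5.31 (an intensity of 39.8), where they carry no order, so a difference that involves the floor depends on where the floor was set. Levels of different genes are not compared, because each probe set has its own response. A gene was called when its adjusted p in limma was below 0.05, in a fit of all 65 arrays with generation and series as factors.

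Of 8499 genes tested, 143 differed between the second transplants and the primary tumors (1.68%). In these, 54 rose (0.635%) and 89 fell (1.05%), and the median difference of all tested genes was 0.0074. Changes of at least 2-fold were few, with 2 genes up (Sostdc1 and Ocm) and 15 down. The median difference of called genes was 0.39 for those that rose and -0.51 for those that fell. When the 22 arrays alone were used, with 1 value per series, 8 genes were called by limma (0.0941%), 7 of them among the 143. These were Dbi, Net1, RT1-N3 and Sostdc1, which were higher in the second transplants, and Mfsd2a, Sema3b, Sfrp2 and Slc25a42, which were lower. Each of the 143 had an unadjusted p below 0.05 in that smaller fit. Its log2 differences are the same ones by which the 143 were called, so this gives no separate support. Flipping the signs of the 11 within-series differences in an exact permutation test, which can give no p below 0.000977, called 0 genes after adjustment over all genes (lowest adjusted p = 0.214), with 1170 genes at an unadjusted p under 0.05.

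The count of 143 depended on single lines: it was 41 without series 17, 52 without 33, 57 without 25R, 79 without 19, 82 without 13 and 285 without 34. Without rescaling of the arrays, 93 genes were called and 25.8% of them rose, against 37.8% of the 143. The log2 ratio of the 3' to the 5' probe sets of Gapdh, a sign of RNA integrity, was higher in the second transplant in 9 of 11 lines, by 0.080 on average (exact sign-flip permutation p = 0.0332, two-sided). The same ratio for beta-actin was higher in 7 of 11 lines, by 0.040 on average (p = 0.428, same test). Median intensity (p = 0.495) and the share of values at the floor (p = 0.625) were compared by that test too. These p-values were not adjusted for the number of measures. With the Gapdh ratio as a covariate, added after the data were seen, 24 of the 143 genes were still called, 3 that rose and 21 that fell, and no further gene was.

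**Figure D1:**
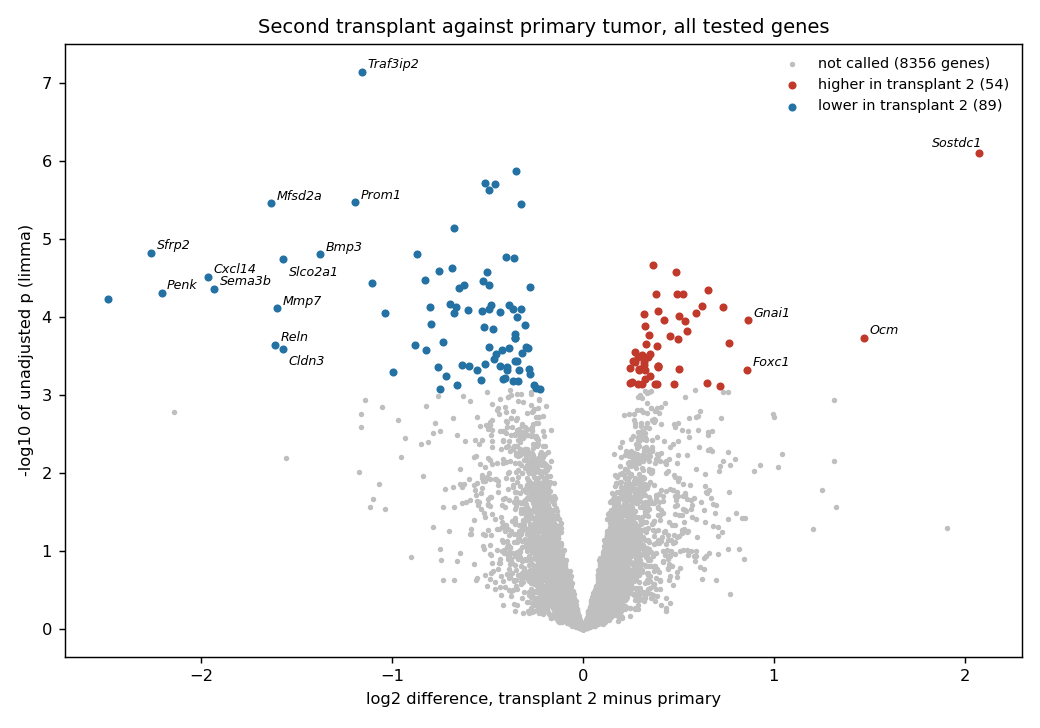
Each point is 1 of the 8499 tested genes, with the log2 difference between transplant 2 and primary on the x axis and -log10 of the unadjusted limma p on the y axis; red points are the 54 genes that rose and blue points the 89 that fell. Named genes that differed by more than 0.85 are labelled, and the blue side reaches further out than the red side. Sostdc1 at 2.07 and Ocm at 1.47 are the only red points at 1 or more, while some genes that were not called also lie there.

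Promoter sequence is shown for 5 named genes that hold the same motif, a motif whose share among changed genes was near that of all promoters. RefSeq (GRCr8) held a promoter for 17 of the 24 genes named below, and the 250 bases before each start were searched on both strands for 6 motifs. Among the 9 named genes that fell and had a promoter, 4 carried a match to TGANTCA. This is a loose form of the AP-1 site bound by Fos and Jun dimers, in which N is any base. The match was TGAGTCA in Mmp7 and Cxcl14, TGAATCA in Prom1 and TGATTCA in Traf3ip2. Each match is in capitals below, with the TATAAA box of Mmp7.

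Mmp7, chr8:13132938-13133017, + strand: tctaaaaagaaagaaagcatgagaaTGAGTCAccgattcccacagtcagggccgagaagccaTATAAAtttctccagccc
Cxcl14, chr17:8323025-8323084, + strand: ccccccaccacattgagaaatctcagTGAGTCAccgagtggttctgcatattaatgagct
Prom1, chr14:71211422-71211481, + strand: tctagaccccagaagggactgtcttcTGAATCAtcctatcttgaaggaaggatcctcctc
Traf3ip2, chr20:44565900-44565959, + strand: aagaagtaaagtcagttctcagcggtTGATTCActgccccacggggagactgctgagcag
Ocm, chr12:15700437-15700496, + strand: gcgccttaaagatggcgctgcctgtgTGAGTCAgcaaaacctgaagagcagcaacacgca

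The site begins 80 bases before the start in Mmp7 and 99 in Cxcl14. In Traf3ip2 it begins 111 bases before the start, and in Prom1 191 bases before the second of its listed starts. The same site lies 163 bases before a listed start of Ocm, a gene that rose, so the motif is not on one side of the comparison only. Over whole groups, 5 of 78 genes that fell (6.41%) and 3 of 44 that rose (6.82%) carried it at any listed start, against 5.18% of 7109 tested genes and 6.99% of 27457 genes with a promoter. A match describes these letters in this window and is not a measured binding site.

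Secreted regulators of Wnt and BMP signalling held the largest rise and the largest fall among the named genes. Sostdc1, which encodes a secreted sclerostin-domain protein that binds BMPs and acts on Wnt receptors, ran from 5.31 to 8.58 in the primary tumors, with a median of 5.51. In the second transplants the median was 8.38, and the values ran from the floor to above the 9.43 of series 13. It was at the floor in 5 primary tumors and in 1 second transplant, that of series 42, where both tumors were at the floor. The other 10 lines were all higher after transplantation, and the second transplant of series 17 was the highest array, from the highest primary tumor. The mean difference was 2.07 ± 0.37 (SE; n = 11 lines; adjusted p = 0.00339, limma).

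Sfrp2, a secreted frizzled-related protein that binds Wnt ligands, went the opposite way. Its primary tumors lay between 8.17 and 10.32 with a median of 9.90, and its second transplants between 5.92 and 8.35 with a median of 7.25. The groups overlapped only through series 17 and 36, which stayed at 8.36 and 8.35 and at 8.17 and 8.21. The line with the lowest second transplant was series 32, which went from 10.11 to 5.92. The mean difference was -2.26 ± 0.47 (SE; adjusted p = 0.00978, limma), with 10 of 11 lines lower. Sostdc1 and Sfrp2 were both also called with 1 value per series, each at an adjusted p of 0.0406 (limma).

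Bmp3, a BMP family ligand that acts against other BMPs, fell by 1.38 ± 0.29 (SE; adjusted p = 0.00978, limma). Its primary tumors ranged from 5.85 to 9.09 with a median of 8.62, and its second transplants from 5.79 to 7.06 with a median of 6.74. The groups overlapped through the primary tumors of series 19, 36 and 42, which already lay at 6.74, 6.21 and 5.85. Series 36 was the 1 line in which the second transplant was higher. Of the 10 tested genes on the list of secreted Wnt and BMP regulators, which does not hold Bmp3, Sostdc1 rose, Sfrp2 fell and 8 were not called, with a list median of 0.00. Among those 8, Fst, the activin and BMP binding protein follistatin, was at 0.47 (adjusted p = 0.198) and Dkk3 at -0.50 (adjusted p = 0.235). The adjusted p of Bmp3 with 1 value per series was 0.108.

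The chemokine Cxcl14 and the cytokine receptor adaptor Traf3ip2 fell. Cxcl14, a chemokine made by normal epithelium, had primary tumors between 6.63 and 10.79 with a median of 9.81. Its second transplants lay between 5.91 and 10.14 with a median of 7.71. Series 19 was the exception, with a rise from 9.42 to 10.14, and its second transplant was the only one above the median of the primary tumors. The mean difference was -1.97 ± 0.43 (SE; adjusted p = 0.0118, limma), with 10 of 11 lines lower. No other gene on the list of 15 tested chemokines and receptors was called. Cxcl10, an interferon-induced chemokine, was at 0.44 (adjusted p = 0.131) and Cx3cl1 at -0.64 (adjusted p = 0.231).

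Traf3ip2, the adaptor Act1 that carries signals from the interleukin-17 receptor, had the smallest adjusted p of all genes (0.000621, limma). Primary tumors ran from 6.87 to 9.76 with a median of 8.33, and second transplants from 6.30 to 7.97 with a median of 7.40. All 11 lines fell, by 1.16 ± 0.19 (SE) on average. The SD between lines was 0.97 in the primary tumors and 0.45 in the second transplants, and the lines that started highest (13, 17, 25L and 25R) ended at 7.31 to 7.84. These lines were picked by the primary values that also enter the fall, so this is a description, and the difference in spread was not tested. The smallest falls were in series 34, from 7.73 to 7.68, and series 10, from 8.22 to 7.97. With 1 value per series its adjusted p was 0.0681. Ifngr2, the second chain of the interferon-gamma receptor, fell in all 11 lines by 0.51 ± 0.10 (SE; adjusted p = 0.0034), and Il18, an interleukin of epithelia and macrophages, fell by 0.80 ± 0.19 (SE; adjusted p = 0.0143). These last 2 genes were picked after their values were seen.

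Genes of neuropeptide, guidance and G protein signalling moved in both directions. Penk, which encodes the precursor of the enkephalin opioid peptides, ran from 8.71 to 11.91 with a median of 11.54 in the primary tumors. In the second transplants it ran from 6.90 to 11.26 with a median of 8.59. Of the 3 lines whose primary tumors were lowest, series 34 and 42 were the 2 in which Penk was higher after transplantation, series 42 by the most, from 9.10 to 11.26. The mean difference was -2.21 ± 0.50 (SE; adjusted p = 0.0126, limma), and the call was lost without series 17 or 33 (highest adjusted p 0.0576) and with the Gapdh covariate (0.0777).

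Sema3b, a secreted class 3 semaphorin that signals through neuropilins and plexins, was lower in 10 lines and at the floor in both tumors of series 42. Primary tumors had a median of 8.50 and reached 9.90, while second transplants had a median of 5.88, reached 7.72 and were at the floor in 4 lines. The difference was -1.93 ± 0.43 (SE; adjusted p = 0.0123, limma) and was also called with 1 value per series (adjusted p = 0.0406). Reln, a secreted glycoprotein known for its part in neuronal positioning, fell by 1.61 ± 0.41 (SE; adjusted p = 0.0252, limma) from a median of 9.47 to one of 7.89. Its dimmer probe set was lower in 8 lines and higher in 2, with a mean difference of -0.98. The call was lost without series 10, 17, 32 or 33 (highest adjusted p 0.0853) and with the Gapdh covariate (0.0955). Series 25L was the line in which the brighter probe set was higher, at 9.38 after 8.98.

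Gnai1, the alpha subunit of an inhibitory G protein that lowers cyclic AMP, rose by 0.86 ± 0.21 (SE; adjusted p = 0.016, limma). Series 42 stood apart, at 10.34 in the primary tumor and 11.01 in the second transplant. In the other lines the primary tumors lay between 5.31 and 6.34 and the second transplants between 6.14 and 7.25, so their ranges overlapped little. Series 34 was the 1 line that was lower, from 6.26 to 6.14. The call was lost without series 13, 19 or 33 (highest adjusted p 0.0668) and with the floor at the 20th percentile (0.54; adjusted p = 0.093). Of 14 tested genes on the list of G protein and neuropeptide signalling, 1 rose (Gnai1), 2 fell (Penk and Reln) and 11 were not called, with a list median of -0.01. Gnaq, another alpha subunit, was at 0.28 (adjusted p = 0.427).

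**Figure D2:**
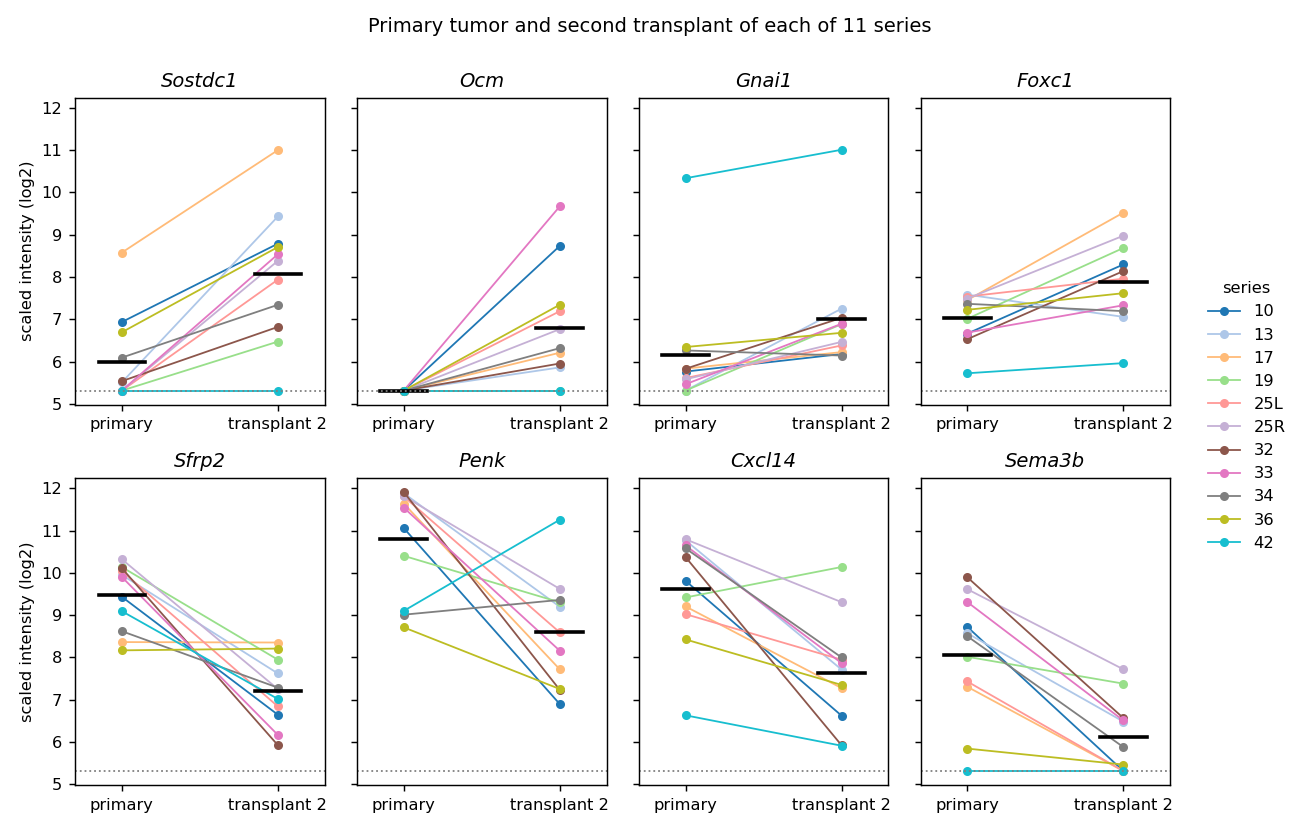
Each panel shows 1 gene, with scaled log2 intensity on the y axis; each colored line joins the primary tumor and the second transplant of 1 of the 11 series, black bars are group means and the dotted line is the floor at 5.31. The upper panels (Sostdc1, Ocm, Gnai1, Foxc1) rise in most lines and the lower panels (Sfrp2, Penk, Cxcl14, Sema3b) fall in most, with series 42 high in Gnai1 throughout and rising in Penk.

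Surface and secreted proteins of luminal epithelium fell in part. Prom1, a pentaspan glycoprotein of apical membrane protrusions also known as CD133, had primary tumors between 6.66 and 10.56 with a median of 9.80. Its second transplants lay between 6.38 and 9.70 with a median of 8.41. The lowest value in both groups was that of series 42, and series 36 was the 1 line that did not fall, at 8.80 and 8.82. The mean difference was -1.19 ± 0.23 (SE; adjusted p = 0.00345, limma). Prom1 was the 1 called gene among 14 tested members of the luminal keratin and adhesion list, which had a median of -0.12. Tspan8, a tetraspanin, was at -1.16 ± 0.37 (SE; adjusted p = 0.0853) and Muc1, an apical mucin, at -0.43 (adjusted p = 0.475).

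Cldn3, a claudin of tight junction strands, ran up to 11.14 with a median of 10.53 in the primary tumors and up to 10.41 with a median of 8.87 in the second transplants. Both tumors of series 42 were at the floor, and in series 32 Cldn3 went from 10.56 to the floor. The other 9 lines were lower by smaller amounts, and the mean difference was -1.57 ± 0.40 (SE; adjusted p = 0.0262, limma). The call was lost without series 17, 25R, 32 or 33 (highest adjusted p 0.0887) and with the Gapdh covariate (0.101). It was the 1 called gene of 10 tested on the tight junction and polarity list (median -0.18), on which Cldn4 was at 0.37 (adjusted p = 0.731) and Tjp1, the scaffold ZO-1, at -0.24 (adjusted p = 0.201). None of 11 tested desmosome and adherens junction genes was called (median -0.02).

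Mmp7, the epithelial matrix protease matrilysin, was lower in 9 lines, higher in series 32 (8.28 and 8.54) and at the floor in both tumors of series 42. Primary tumors had a median of 8.28 and reached 9.71, and second transplants had a median of 5.90 with 4 of 11 at the floor. The difference was -1.60 ± 0.37 (SE; adjusted p = 0.0143, limma), not called without series 13, 17 or 25L (highest adjusted p 0.0639) or with the Gapdh covariate (0.0543). Of 16 tested matrix proteases and inhibitors it was the 1 called gene (median -0.09); Adamts1, a secreted protease, was at -0.93 (adjusted p = 0.0968). Reck, a membrane-anchored inhibitor of matrix metalloproteinases that is not on that list and was picked after its values were seen, fell by 0.99 ± 0.27 (SE; adjusted p = 0.0365).

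The transporters Mfsd2a and Slco2a1 fell. Mfsd2a, a membrane transporter of lysophosphatidylcholine, was lower in all 11 lines. Its primary tumors ran from 5.46 to 8.92 with a median of 7.93, and its second transplants from the floor, where 5 of them lay, to 8.07 with a median of 6.16. Series 19 and 25R kept the highest levels after transplantation, at 7.85 and 8.07. The difference was -1.63 ± 0.32 (SE; adjusted p = 0.00345, limma), and the adjusted p was 0.0406 with 1 value per series.

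Slco2a1, the prostaglandin transporter that takes up prostaglandins for breakdown, fell by 1.57 ± 0.33 (SE; adjusted p = 0.00978, limma). Its primary tumors ranged from 5.80 to 10.69 with a median of 9.28, and its second transplants from 5.31 to 8.79 with a median of 7.53. Series 36 was the 1 line that was higher, and a dimmer probe set was lower in 10 of 11 lines, by 0.76 on average. Hpgd, the dehydrogenase that inactivates prostaglandins inside the cell, fell by 1.04 ± 0.24 (SE; adjusted p = 0.0143) and was lower in 9 of 11 lines. The enzymes that make prostaglandins were not called: Ptgs2 was at -0.10 (adjusted p = 0.836), Ptgs1 at -0.34 (adjusted p = 0.446) and Ptges at -0.16 (adjusted p = 0.714). Hpgd and these 3 enzymes were chosen after the values of Slco2a1 and Hpgd were seen.

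Dbi and Acsl4, which act on fatty acyl-CoA, rose. Dbi, the acyl-CoA binding protein, rose in all 11 lines, from between 9.07 and 9.93 (median 9.23) to between 9.46 and 10.65 (median 10.12). The smallest step was in series 34, from 9.93 to 9.95, whose primary tumor was the highest. The difference was 0.73 ± 0.17 (SE; adjusted p = 0.0143, limma) and was called with 1 value per series (adjusted p = 0.0406), but not without series 25R or 33 (highest adjusted p 0.0552) or with the Gapdh covariate (0.0535). Acsl4, an acyl-CoA synthetase that prefers arachidonic acid, rose by 0.66 ± 0.15 (SE; adjusted p = 0.0123), with 10 of 11 lines higher, and was not called without series 19 or 25R (highest adjusted p 0.0532) or with the Gapdh covariate (0.0663). It was the 1 called gene of 21 tested on the fatty acid synthesis list (median 0.15), on which Acsl1 was at 0.68 (adjusted p = 0.117) and the desaturase Fads1 at 0.65 (adjusted p = 0.113). Higd1a, a mitochondrial protein that responds to hypoxia, rose by 0.72 ± 0.20 (SE; adjusted p = 0.0471), and its dimmer probe set was at 0.40. The call of Higd1a held only without series 25L, 32, 34 or 36 among the lines left out in turn (highest adjusted p 0.174), and was lost with the Gapdh covariate (0.186). Slc25a42, the mitochondrial carrier of coenzyme A, fell in all 11 lines by 0.65 ± 0.15 (SE; adjusted p = 0.0123) and was picked after its values were seen.

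Ocm, which encodes oncomodulin, a calcium-binding protein of the parvalbumin family, lay at the floor in each of the 11 primary tumors. In the second transplants it was above the floor in 9 lines and reached 8.73 in series 10 and 9.67 in series 33, with a median of 6.32. Series 19 and 42 were at the floor in both tumors. The difference, with floored values in both groups, was 1.47 ± 0.37 (SE; adjusted p = 0.022, limma) on the log2 scale. It was no longer called without series 10, 17 or 33 (highest adjusted p 0.119), with the floor at the 20th percentile (0.91; adjusted p = 0.121) or with the Gapdh covariate (adjusted p = 0.076). Of 16 tested S100 and related calcium-binding genes it was the 1 called (median 0.05). S100a9, a granulocyte protein, was at 1.25 ± 0.51 (SE; adjusted p = 0.198).

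Several transcriptional regulators rose by less than 1 on the log2 scale. Foxc1, a forkhead transcription factor, went from a range of 5.72 to 7.58 (median 7.22) to one of 5.96 to 9.52 (median 7.96). It rose by 0.86 ± 0.23 (SE; adjusted p = 0.0348, limma), with series 13 and 34 lower, and was called in 4 of the 11 fits that left out 1 line (highest adjusted p 0.137). Pbx3, a homeodomain partner of Hox proteins, rose by 0.62 ± 0.14 (SE; adjusted p = 0.0143), most in series 33, from 7.30 to 9.48. Mybl2, a Myb family factor that drives genes of the cell division cycle, rose by 0.59 ± 0.14 (SE; adjusted p = 0.0143) and was higher in 10 of 11 lines. Rcor2, a CoREST family corepressor, rose by 0.53 ± 0.13 (SE; adjusted p = 0.016). Mtmr7, a myotubularin-related lipid phosphatase, rose by 0.52 ± 0.12 (SE; adjusted p = 0.0126). With single lines left out, Pbx3 was not called without series 17, 19, 25R or 33 (highest adjusted p 0.0832), Mybl2 without 17 or 25R (0.0732), Rcor2 without 10, 13, 17 or 25R (0.0789) and Mtmr7 without 25R (0.0624). With the Gapdh covariate none of these 5 genes was called, at adjusted p-values from 0.0526 for Rcor2 to 0.0988 for Mybl2.

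RT1-N3, a class I gene of the rat major histocompatibility complex, rose in all 11 lines. Its primary tumors ranged from 5.74 to 6.89 with a median of 6.15, and its second transplants from 6.20 to 7.16 with a median of 6.72. The difference was 0.54 ± 0.13 (SE; adjusted p = 0.0196, limma; 0.0498 with 1 value per series), and the call was lost without series 17, 25L or 25R (highest adjusted p 0.0611) and with the Gapdh covariate (0.101). Class I genes of this complex are closely related in sequence, and which of them the probe set reads was not tested. Among 18 tested antigen presentation genes it was the 1 called (16 above zero, median 0.23). None of 16 interferon response genes was called (14 above zero, median 0.22), and Ifit3 was at 0.33 (adjusted p = 0.125). Over all 8499 tested genes 4411 lay above zero.

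**Figure D3:**
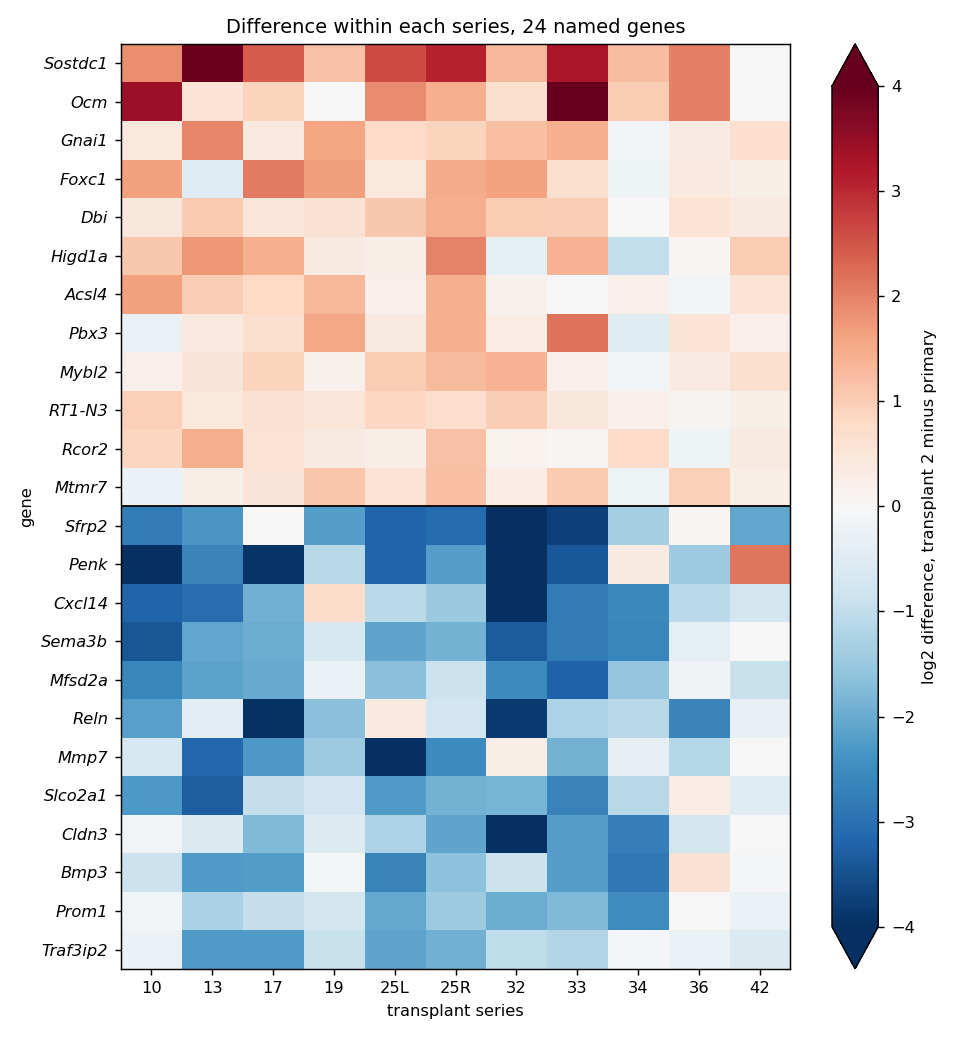
Heat map of the log2 difference, transplant 2 minus primary, for the 12 named genes that rose (upper rows) and the 12 that fell (lower rows) in each of the 11 series; red is higher and blue lower in the second transplant, and the color scale ends at 4 either way. Sostdc1, Dbi and RT1-N3 are red or near white in every column, Traf3ip2 and Mfsd2a are blue or near white in every column, and the columns of series 34, 36 and 42 hold more pale cells than the others.

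The lines did not move by the same amount. The median absolute difference over all 8499 genes ran from 0.16 in series 34 and 36 to 0.32 in series 25L. Of the 89 genes that fell, 77 to 89 were lower in series 10, 13, 17, 19, 25L, 25R, 32 and 33, against 67 in series 34, 54 in series 36 and 61 in series 42. Of the 54 genes that rose, 28 were higher in series 34 and 43 to 52 in the other lines. All 11 lines entered the choice of called genes, so these counts are a description. Series 42 differed from the rest from the start: its primary tumor was the lowest for Cxcl14, Sema3b, Reln, Slco2a1, Cldn3, Mmp7, Bmp3, Prom1 and Traf3ip2. The summed level of its luminal markers was 10.14 in the primary tumor and 10.03 in the second transplant, on the log2 scale, against medians of 14.07 and 13.95 over the 11 lines, so luminal markers were low in both tumors of that line.

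None of the cell division genes was called. All 17 tested mitosis genes lay above zero, with the list mean higher in 9 of 11 lines and a median difference of 0.41, and 9 of them had an unadjusted p below 0.05. Over all 8499 genes 4411 lay above zero, the median was 0.0074 and 621 had an unadjusted p below 0.05 on the higher side. Ccnb1, the mitotic cyclin B1, went from a median of 7.63 to one of 8.61 (0.76 ± 0.22, SE; adjusted p = 0.0521), just outside the threshold. Mki67, the proliferation antigen, was at 0.58 (adjusted p = 0.218) and was higher in 9 of 11 lines. Among 23 DNA replication genes, 22 lay above zero with a median of 0.17, the list mean was higher in 8 of 11 lines and 0 were called; Mcm6, a subunit of the replicative helicase, was at 0.49 (adjusted p = 0.202).

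None of the genes on the hypoxia and glycolysis list, which does not hold Higd1a, was called either. Of 33 tested genes 30 lay above zero, against 4411 of all 8499. The list median was 0.32, the list mean was higher in 8 of 11 lines and 13 genes had an unadjusted p below 0.05. Tpi1, a glycolytic isomerase, was at 0.59 ± 0.17 (SE; adjusted p = 0.0507) and Ndrg1, a stress gene induced by low oxygen, at 1.00 ± 0.31 (SE; adjusted p = 0.0756). Pfkp, a phosphofructokinase, was at 0.60 (adjusted p = 0.0886) and P4ha1, a collagen prolyl hydroxylase subunit, at 0.61 (adjusted p = 0.11).

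Hormone and prolactin response genes had the lowest list median, -0.42 over 11 tested genes, with 9 of 11 below zero (4088 of 8499 over all tested genes). The array held 17 members of this list. Those left out as too low were Esr1 and Pgr, the estrogen and progesterone receptors, and Socs2, Irs1, Insr and Ghr. Igf1r, the receptor of insulin-like growth factor 1, was the 1 called gene. It fell from a median of 7.88 to one of 7.23, by 0.72 ± 0.20 (SE; adjusted p = 0.0399, limma), in 10 of 11 lines. With 1 value per series its adjusted p was 0.108 (limma). Areg, the epidermal growth factor family ligand amphiregulin, was at -1.55 ± 0.55 (SE; adjusted p = 0.125) and Prlr, the prolactin receptor, at -1.17 ± 0.44 (SE; adjusted p = 0.149). Stat5a, which carries the prolactin signal to the nucleus, was at -0.42 (adjusted p = 0.131). Of 15 tested ErbB, FGF and MET receptors and ligands 0 were called (median -0.20), with Fgfr3 at -0.75 (adjusted p = 0.0886) and Egfr at -0.53 (adjusted p = 0.165).

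Few other lists held a called gene. Zmat3, a p53 target that encodes an RNA-binding zinc finger protein, fell by 0.49 ± 0.09 (SE; adjusted p = 0.0034) and was the 1 called of 9 tested p53 targets (median -0.03). Egr2, an immediate early transcription factor, fell by 0.42 ± 0.11 (SE; adjusted p = 0.0262), the 1 called of 19 immediate early genes (median 0.08). Rpl39 rose by 0.46 ± 0.11 (SE; adjusted p = 0.0215) in all 11 lines and Rpl21 by 0.27 ± 0.07 (SE; adjusted p = 0.0275), while the other 37 of 39 tested cytosolic ribosomal protein genes were not called (median 0.02). The 16 mesenchymal genes and EMT factors held 0 calls with a median of 0.28, and Vim, the intermediate filament of mesenchymal cells, was at 0.72 ± 0.22 (SE; adjusted p = 0.0762). Oxidative phosphorylation (48 genes, median 0.10), proteasome subunits (30 genes, median 0.05) and cholesterol synthesis (18 genes, median 0.13) held 0 calls.

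**Figure D4:**
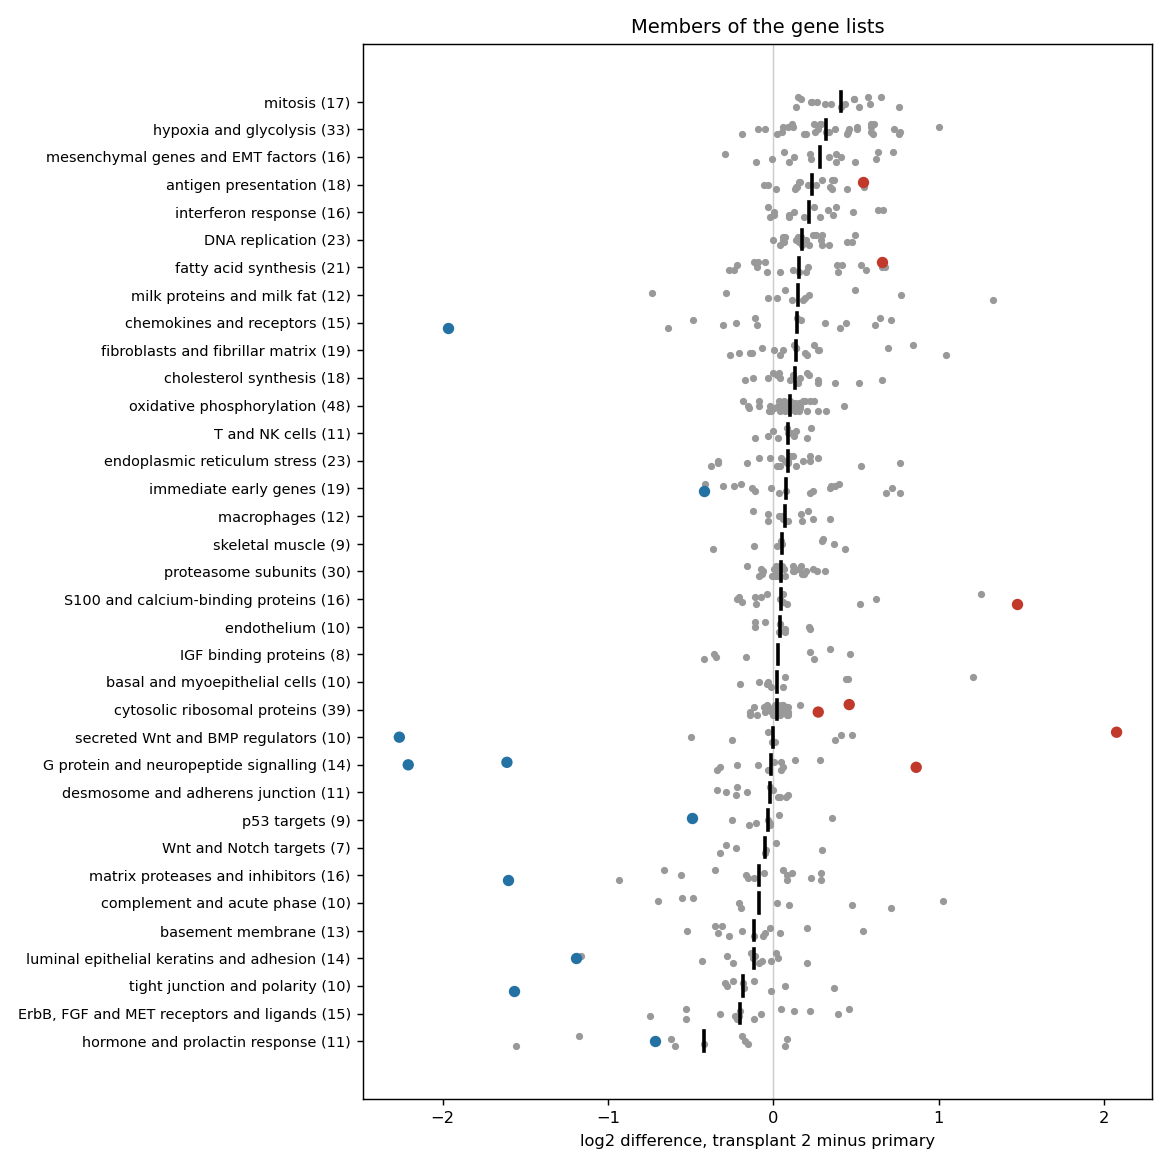
Each point is 1 tested gene of the gene list on its row, placed by its log2 difference between transplant 2 and primary; red and blue mark genes that rose or fell, grey marks genes that were not called, black bars are list medians and the number tested is in parentheses (lists with 7 or more tested genes). The medians run from 0.41 for mitosis to -0.42 for hormone and prolactin response, and most called genes lie far from the median of their own list.

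Marker levels of the cell types in the tissue gave no called difference between the groups when summed. The summed levels of 12 marker lists, covering both epithelial layers, stroma, vessels, fat, muscle and 6 kinds of blood cell, gave adjusted p-values of 0.746 or more when the 11 line differences were sign-flipped in an exact permutation test. Fibroblast and matrix genes summed to a range of 12.39 to 15.95 in the primary tumors and 11.95 to 15.46 in the second transplants, and macrophage genes to 12.96 to 14.32 and 12.65 to 14.33. Skeletal muscle genes reached 13.26 in the primary tumor of series 42 and 12.51 in the second transplant of series 33, against group medians of 10.94 and 10.78. A sum is led by its brightest members, and the mean of log2 members gives each gene the same weight. For the 14 luminal genes that mean was higher in the second transplant in 1 of 11 lines (mean difference -0.26), and for 4 granulocyte genes in 9 of 11 (0.33). The luminal mean was led by Prom1 (-1.19) and Tspan8 (-1.16), while the list median was -0.12, with 11 genes below zero and 3 above. The granulocyte mean was led by S100a9 (1.25), with Lcn2 and Np4 at 0.02 and Mmp8 at 0.04. The B and plasma cell list rested on 1 tested gene, and the mast cell and red blood cell lists on 3 each. The adipocyte list rested on 5 of 11 genes on the array, without Plin1, Fabp4 and Pparg, and the skeletal muscle list on 9 of 17. The part of these cells in the results was not tested.

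The direct comparisons of the second transplants with the tumors before and after them called 0 genes each by limma. Transplant 2 minus transplant 1 had 195 genes at an unadjusted p below 0.05, the mean of transplants 3 to 5 minus transplant 2 had 867, and transplant 4 minus transplant 2 had 569. With 1 value per series these gave 0 calls as well, and an unadjusted p below 0.05 for 443, 540 and 561 genes. Against the primary tumors, transplant 1 gave 0 calls (584 genes at an unadjusted p below 0.05, smallest adjusted p 0.0982), beside 143 for transplant 2, 258 for transplant 3, 534 for transplant 4 and 1197 for transplant 5. These comparisons share the same 11 primary tumors, so their counts are not independent of each other.

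The levels of leading genes were followed by generation. Sostdc1 averaged 5.99 ± 1.04 (SD, n = 11) in the primary tumors, 7.42 ± 1.75 (SD, n = 11) in transplant 1, 8.07 ± 1.55 (SD, n = 11) in transplant 2 and 7.44 ± 2.11 (SD, n = 10) in transplant 5. Sfrp2 averaged 9.47 ± 0.78, 7.64 ± 1.34 and 7.20 ± 0.79 (SD, n = 11 each) in the primary tumors and transplants 1 and 2, and 7.75 ± 1.61 (SD, n = 10) in transplant 5. The differences of transplant 1 from the primary tumors were 1.42 for Sostdc1 and -1.83 for Sfrp2, and neither was called (adjusted p = 0.199 for each, limma). Both genes were chosen by their difference from these same primary tumors, whose values enter each step. The sizes of the steps were not compared by a test.

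Traf3ip2 averaged 8.56 in the primary tumors, 7.66 in transplant 1, 7.40 in transplant 2 and 7.03 in transplant 5, with a transplant 1 difference of -0.90 (adjusted p = 0.0982). Cldn3 averaged 9.98, 9.34, 8.41 and 7.51 in the same groups. Its difference between transplants 2 and 1 was -0.93 (not called, adjusted p = 1). Mtmr7 had its highest mean in transplant 2, at 6.66, against 6.13 in the primary tumors and 6.28 in transplant 5. It was not called in any later transplant against the primary tumors. Its difference between the mean of transplants 3 to 5 and transplant 2 was -0.33 and was not called either (adjusted p = 0.461, limma). Dbi was also highest in transplant 2, at 10.05 against 9.59 in transplant 5, and its difference between the mean of transplants 3 to 5 and transplant 2 was -0.32 (adjusted p = 0.48). Mtmr7 and Dbi were named for their rise in transplant 2, which favours a highest mean in that group, so these courses are a description.

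**Figure D5:**
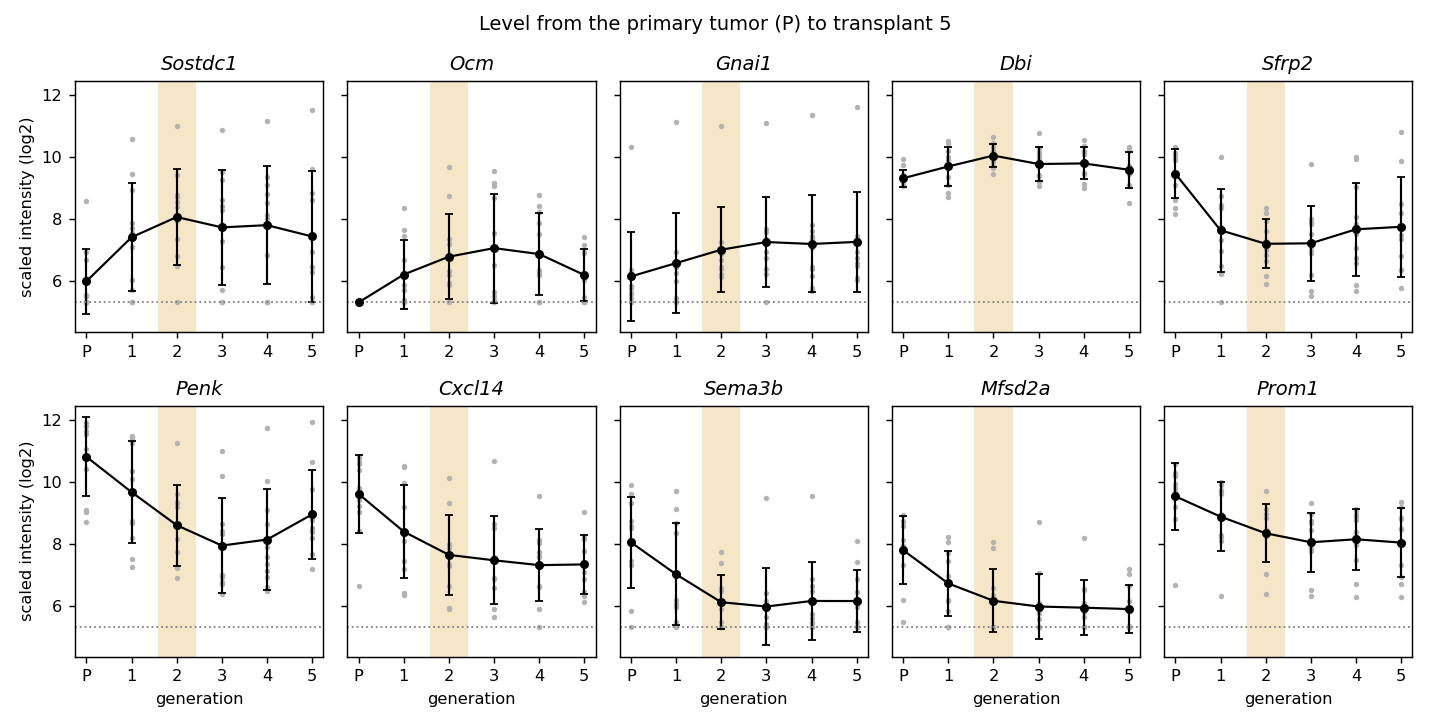
Panels give 10 of the named genes, with generation on the x axis (P is the primary tumor, 1 to 5 the transplants) and scaled log2 intensity on the y axis; grey points are arrays, black points and bars are the mean and SD (n = 11, 10 for transplant 5), the shaded band marks transplant 2 and the dotted line is the floor at 5.31. Means of Sostdc1 are 5.99 in P, 7.42 in transplant 1 and 8.07 in transplant 2, those of Sfrp2 are 9.47, 7.64 and 7.20, and Dbi has its highest mean, 10.05, in transplant 2.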

How the data were processed

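Total RNA of frozen tumors, 6 µg each, was labelled with biotin and hybridised to Affymetrix arrays, per the labels' protocols. The authors deposited probe set intensity values on a linear scale (1 to 12011). The summarisation of probes and any normalization are not given in the sources used here, and no detection call was used. Here the 57 control probe sets were left out, each array was scaled to the median of 162 over 15866 probe sets, values below the pooled 10th percentile (39.8) were raised to that floor before log2. Of the probe sets 12783 had 1 gene symbol, 312 several and 2771 none, and 12748 were updated to GRCr8 names by gene identifier. The brightest probe set stood for each of 10411 genes, and the lowest 25% by mean log2 (below 6.35) were left out, which left 8499. That mean was over all 65 arrays, so a gene low in 1 group could pass through the other arrays. The primary tumors averaged below 6.35 for Sostdc1, Ocm, Gnai1, RT1-N3 and Mtmr7. The second transplants did so for Sema3b, Mfsd2a and Mmp7. Median intensities before scaling ran from 145 to 173 over the 22 arrays, and the number of arrays limits the precision. Over all 65 arrays they ran from 96 to 176. The lowest was the transplant 5 array of series 32, with 14.5% of its values at the floor, and it was kept in the main fit.

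Tests used limma 3.58.1 in R 4.3.3 (lmFit and eBayes) with Benjamini-Hochberg adjustment over all 8499 genes, on all 65 arrays with generation and series as factors. This fit treats the residuals of 1 line as independent, which successive passages of the same tumor need not be. Series pair the tumors because they are lines of descent; after group means were removed, the mean correlation of a second transplant with its own primary tumor was 0.21, against -0.01 with other primary tumors, and 6 of 11 pairs exceeded 0.1; series 42 reached 0.87, and 3 of 11 second transplants correlated best with their own primary tumor. Named genes were the 12 largest rises and 12 largest falls among called genes with the same direction in 9 or more of 11 lines, plus called list members and up to 4 others per list with the smallest unadjusted p. The genes compared, the 40 lists and the tests were chosen with earlier results of these data known. Alternatives covered the fit, scaling, filter, floor, probe set choice, array weights, the variance prior, averaging of 25L and 25R, and leaving out each line. The procedure was tested on simulated data.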

Additional observations from a re-analysis of the deposited data

Results flagged for a closer look

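Gnai1 in the transplant 5 tumors held 1 array far from the other 9: its highest value was 11.63 on the log2 scale, and the next highest was 7.45. That array belongs to series 42, whose primary tumor and second transplant were also high, at 10.34 and 11.01. The rule by which such a value is picked out marks about 1 in 20 groups by chance, and it was applied to 24 genes. Only the group of 10 transplant 5 arrays was small enough to be examined in this way.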

How the results depend on the processing

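The count of 143 genes called for transplant 2 against primary fell to 8 with 1 value per series and to 0 with generation alone and no replicate block, a fit that ignores the pairing of tumors by line (601 genes at an unadjusted p below 0.05, limma). It was 93 without rescaling, 242 after quantile normalization and 24 with the Gapdh ratio as a covariate, and 41 to 285 when 1 line was left out (82 without series 13, 41 without 17, 79 without 19, 57 without 25R, 52 without 33, 285 without 34). Under the other alternatives it stayed between 109 (25L and 25R averaged) and 191 (without the transplant 5 array of series 32, added after the data were seen). The 3 comparisons among transplants called 0 genes under each alternative run. No named gene changed sign under the alternatives in which it was tested. With the filter at the median, only 15 of the 24 named genes were tested. With the floor at the 5th percentile 21 were, and with it at the 20th 23. The named genes were chosen for moving the same way in most lines, and the fit with 1 value per series gives the same differences. The lack of sign changes therefore gives no separate support for their direction. Of the 24, 6 were still called with 1 value per series (Sostdc1, Dbi, RT1-N3, Sfrp2, Sema3b, Mfsd2a), 0 without the block and 10 with the Gapdh covariate (Sostdc1, Gnai1, Sfrp2, Cxcl14, Sema3b, Mfsd2a, Slco2a1, Bmp3, Prom1, Traf3ip2). Sostdc1, Sfrp2, Cxcl14, Sema3b, Mfsd2a, Slco2a1, Bmp3, Prom1 and Traf3ip2 were called whichever line was left out. The cause of these shifts was not tested, beyond fewer values entering the smaller fits. Near the floor, signal over background limits what can be measured.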

Other observations

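The largest fall of any tested gene lay outside the rule for named genes. Mup5, a member of the major urinary protein family of lipid carriers, was lower by 2.49 ± 0.57 (SE; adjusted p = 0.0142, limma) in 8 of 11 lines, higher in 2 and at the floor in both tumors of 1. It averaged 9.16 ± 2.14 (SD, n = 11) in the primary tumors and 6.67 ± 1.87 (SD, n = 11) in the second transplants, of which 6 were at the floor. The members of this family are near-identical in sequence, and its probe set is of the kind that can read several of them.

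Some regulators of chromatin were among the 89 genes that fell (1.05% of 8499 tested). They were picked after the values were seen, and the grouping was not tested. How many chromatin regulators were tested was not counted, and Rcor2, a CoREST family corepressor, rose by 0.53. Crebbp, a histone acetyltransferase, fell by 0.60 ± 0.16 (SE; adjusted p = 0.0345), and the histone methyltransferases Ash1l, Kmt2a and Nsd1 fell by 0.56, 0.35 and 0.35. Jmjd1c, a Jumonji-domain protein, fell by 0.52 and Jarid2, a partner of Polycomb complex PRC2, by 0.26. With 1 value per series the adjusted p was 0.117 for Crebbp, 0.0972 for Ash1l and 0.21 for Jmjd1c (limma). Ino80, a nucleosome remodeller, fell by 0.32 and Brd3, a bromodomain protein, by 0.28, the last in all 11 lines. Among genes that rose were Arpc1b (0.50) and Arpc3 (0.32), subunits of the actin-branching Arp2/3 complex, and Atp5mf (0.50), a subunit of ATP synthase that was higher in all 11 lines.

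Net1, an exchange factor for RhoA, was called only with 1 value per series (adjusted p = 0.042, limma). It was higher in all 11 lines by 0.59 and had an adjusted p of 0.0756 in the fit of all arrays.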
